A study of Homo sapiens with 10 samples.

Results

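The ISG15 conjugation pathway was described from the RNA-seq of NB4 cells through 6 genes, namely ISG15, UBA7, UBE2L6, HERC5, HERC6 and USP18. They were chosen by symbol among the protein-coding genes, of which the tables list 19957 among 60603 genes in all, and each symbol had 1 protein-coding row. NB4 cells are an established line that comes from a human acute promyelocytic leukemia. In the GSE1 knockdown experiment, cells carried the lentiviral pLKO.1 puro vector, either empty (EV) or with the short hairpin RNA shA1 or shB2 against GSE1, and were collected after 48 h. In the LSD1 inhibition experiment, NB4 cells were collected after 24 h with DMSO or with 2 µM of the LSD1 inhibitor MC2580. Each of these groups has 2 samples.

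ISG15 is a ubiquitin-like protein that interferon induces and that is attached to other proteins by its own enzyme cascade. UBA7 is the E1 enzyme that activates it, UBE2L6 the E2 enzyme that carries it, and HERC5 the main human E3 ligase that places it on substrates. USP18 removes it again and also dampens signaling at the type I interferon receptor. HERC6 is the closest relative of HERC5 and serves as the main ISG15 ligase in the mouse.

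The value used for each gene is the base mean, which is the authors' average over the libraries of an experiment after division of the counts by size factors. It pools EV, shA1 and shB2 in the first experiment, and DMSO and MC2580 in the second. The tables used here hold no value for a single library or group, and the fold changes and p-values they hold are the authors' own comparisons, which were not used. The values below are therefore levels of NB4 cells over all conditions of an experiment. They carry no SD, their depth per library is unknown, and they do not say which condition is higher or lower. Likewise, the fall of GSE1 RNA with the hairpins could not be checked in each library. For MC2580 the paper reports a fall of the GSE1 protein but no significant change of its transcript. GSE1 had a pooled base mean of 2963 in the knockdown experiment and of 4441 in the inhibition experiment. The experiments were normalised separately, so the difference between these values does not measure the knockdown.

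All 6 genes of the pathway were expressed in NB4 cells. ISG15 itself had the highest base mean, at 3810 in the knockdown experiment and 3616 in the inhibition experiment. UBE2L6 followed with 2957 and 2119. HERC5 had base means of 2427 and 1686. The next values, of 1326 and 1064, belonged to UBA7. The lowest were those of HERC6, at 1141 and 562, and of USP18, at 975 and 531. The counts per library behind these averages are not in the tables used here, so no interval can be given for them.

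A long transcript yields more reads than a short one at the same abundance, so levels were compared between genes per length. For this, each base mean was divided by the length of the gene's merged exons in kilobases and scaled so that all protein-coding genes of an experiment sum to 1000000. On this scale the median expressed protein-coding gene was at 7.19 in the knockdown experiment and at 6.23 in the inhibition experiment. All 6 pathway genes lay above these medians in both experiments, except that by coding length HERC6 was at the 46.0 percentile in the inhibition experiment. Percentiles below are shares of the protein-coding genes with a base mean above 0 that had a lower per-kilobase level.

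The modifier had the highest level of the pathway. ISG15 reached a per-kilobase level of 420 in the knockdown experiment (98.2 percentile) and of 361 in the inhibition experiment (97.7 percentile). This was 15.1-fold and 17.8-fold the per-kilobase level of UBA7, the enzyme that activates it. Its lead over UBE2L6 was smaller, at 3.06-fold and 4.06-fold, and by coding length it was 1.19-fold and 1.58-fold. The ISG15 gene (ENSG00000187608.10) spans positions 1001138 to 1014540 of chromosome 1 (GRCh38, plus strand). Its canonical transcript has 2 exons and 637 bases, of which 495 are coding. On the opposite strand, a processed pseudogene overlaps 36 bases of its merged exons (4.15%) but none of this transcript, and the library kit does not mark strand.

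Among the enzymes, the carrier was the most abundant. UBE2L6 had per-kilobase levels of 137 (93.2 percentile) and 89.0 (89.7 percentile). This was 4.92-fold and 4.39-fold the per-kilobase level of UBA7, which acts before it, and 2.81-fold and 2.90-fold that of HERC5, which acts after it. By coding length these folds were larger, at 14.7 and 13.2 over UBA7 and at 8.15 and 8.41 over HERC5. UBE2L6 (ENSG00000156587.16) lies on the minus strand of chromosome 11, from 57551656 to 57568284, with 4 exons in its canonical transcript.

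The per-kilobase level of UBA7 was 27.9 (70.9 percentile) in the knockdown experiment and 20.3 (68.1 percentile) in the inhibition experiment. UBA7 (ENSG00000182179.13) lies on the minus strand of chromosome 3, from 49805209 to 49813953, and its canonical transcript has 24 exons. It shares 109 exonic bases, or 2.40% of its merged exons, with the microRNA gene MIR5193 on the same strand.

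The paired HERC genes were unequal. HERC5 had per-kilobase levels of 48.7 (80.5 percentile) and 30.7 (75.2 percentile), while HERC6 had 18.9 (63.9 percentile) and 8.42 (54.0 percentile). The level of HERC5 was 2.58-fold that of HERC6 in the knockdown experiment and 3.64-fold in the inhibition experiment. Both lie on the plus strand of chromosome 4, HERC6 (ENSG00000138642.14 in the tables) from 88378739 to 88443097 and HERC5 (ENSG00000138646.9) from 88457119 to 88506163. Their coding lengths are alike, at 3066 bases for HERC6 and 3072 bases for HERC5, and each canonical transcript has 23 exons.

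USP18, the enzyme that takes ISG15 off, was among the lowest of the pathway, with per-kilobase levels of 22.8 (67.2 percentile) and 11.2 (58.2 percentile). ISG15 stood at 18.4-fold and 32.2-fold its level, or at 8.81-fold and 15.3-fold by coding length. USP18 (ENSG00000184979.9 in the tables) lies on the plus strand of chromosome 22, from 18150118 to 18177397. Its value is less certain than those of the other genes because its sequence occurs elsewhere. Of the 1809 stretches of 50 bases in its canonical transcript, 957 (52.9%) were found unchanged in transcripts of other genes, and 478 of them in USP41. USP41 is in the authors' tables, where it had base means of 8.47 and 2.82, so reads from the stretches it shares with USP18 could have been divided between both. Most of the other stretches lie in genes of GENCODE release 44 that these tables do not list. In HERC6, 30 of 3727 such stretches (0.805%) were shared, with HERC3 and with AC098582.1, which GENCODE also names HERC3. In ISG15, HERC5, UBA7 and UBE2L6, 0 were shared.

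The order from ISG15 over UBE2L6, HERC5, UBA7 and USP18 to HERC6 was the same in both experiments. Without a spread over libraries, no pair of neighbours in it could be tested. ISG15, UBE2L6 and HERC6 held the first, the second and the last place under each of 4 definitions of length. The places between them depended on the definition. With the canonical transcript, USP18 stood at 27.6 and UBA7 at 21.1 in the knockdown experiment, against 13.5 and 15.2 in the inhibition experiment. By coding length, USP18 at 22.6 passed HERC5 at 20.4 in the knockdown experiment, whereas HERC5 at 13.0 stayed above USP18 at 11.3 in the inhibition experiment. Coding length also brought ISG15 closest to UBE2L6, at 199 and 166 in the knockdown experiment.

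The cascade of ubiquitin itself gives a yardstick, since UBA1 and UBE2L3 are the E1 and an E2 enzyme of that system and UBB and RPS27A are ubiquitin genes. UBA1 had per-kilobase levels of 276 and 240, which were 9.90-fold and 11.8-fold those of UBA7. UBE2L6, in contrast, was at a level close to that of UBE2L3, which had 107 in the knockdown experiment, below UBE2L6, and 105 in the inhibition experiment, above it. By coding length UBE2L3 was higher in both, at 1.48-fold and 2.25-fold the level of UBE2L6. UBB had per-kilobase levels of 3107 and 2952 and RPS27A of 1135 and 796, so that ISG15 was below both in each experiment. NEDD8, another small modifier, was at 124 and 152, below ISG15 on merged exons, as it was with the longest transcript. By coding length, in contrast, ISG15 was at 0.382-fold and 0.267-fold the level of NEDD8, and with the canonical transcript at 0.752-fold and 0.526-fold. The median of the 7 listed genes for other ubiquitin-like modifiers and their enzymes was 101 and 77.3, against 38.3 and 25.5 for the 6 ISG15 pathway genes.

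Of the 7 other genes that are known or reported to act on ISG15, all lay above the median expressed gene per kilobase in both experiments. TRIM25, an E3 ligase reported for ISG15, was at 63.3 and 44.4, above HERC5 in both. ARIH1, another reported ligase, was at 12.5 and 8.14, below HERC6 in both, whereas by coding length HERC6 was at 0.209-fold and 0.142-fold its level. USP5, a deubiquitinase reported to bind ISG15, was the highest of them at 162 and 149. Among the larger HERC family, HERC1, HERC2, HERC3 and HERC4 had levels from 8.98 to 23.4 in the knockdown experiment and from 5.55 to 16.9 in the inhibition experiment. HERC5 was above all of these in both, and HERC3, which adjoins the pair on chromosome 4, had 10.6 and 5.55.

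Interferon drives the pathway through its receptor, the kinases JAK1 and TYK2, and factors that include STAT2 and IRF9. The per-kilobase levels of the 6 genes listed for this signaling ran from 5.63 for IFNAR2 to 227 for TYK2 in the knockdown experiment, and from 2.95 to 209 for the same genes in the inhibition experiment. STAT2 was at 38.7 and 22.3. IRF9, its DNA-binding partner, was at 7.44 and 7.43, near the median gene. ISG15 also acts outside cells, where the integrin LFA-1 serves as its receptor. Of its chains, ITGB2 was at 153 and 103 and ITGAL at 8.22 and 2.33.

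The base means of the pathway were larger in the knockdown experiment than in the inhibition experiment for all 6 genes. The 2 tables were normalised separately, so a ratio of their base means is read only against that of other genes. The 12354 protein-coding genes that reached a base mean of 10 in each table were used for this. Their median ratio was 1.05, with a 5th percentile of 0.625 and a 95th percentile of 1.96. Most of these genes thus also had the larger base mean in the knockdown experiment. ISG15 had a ratio of 1.05 (50.8 percentile), at the middle of all genes. UBA7 had 1.25 (70.6 percentile), UBE2L6 had 1.40 (81.2 percentile) and HERC5 had 1.44 (83.3 percentile). The ratios of USP18, at 1.84 (93.7 percentile), and of HERC6, at 2.03 (95.7 percentile), were near the upper end. The median ratio of the 6 genes was 1.42. These values are a description without a test. Transduction, hairpins, compound and hours to collection all differ between the experiments, and cannot be told apart here. The listed myeloid markers had ratios on both sides of the median gene or close to it. The granule genes MPO, PRTN3, AZU1 and CTSG had ratios of 0.614, 0.576, 0.399 and 0.624, all below the 5th percentile of the genes, and CD33 had 1.05 (50.1 percentile). KIT had 3.77 (99.5 percentile) but low base means, of 66.3 and 17.6, and those of ELANE were too low for this comparison. Of the LFA-1 chains, which are not in the marker list, ITGAL had 3.20 (99.1 percentile) and ITGB2 1.34 (77.6 percentile). The part of these genes in the ratios of the ISG15 pathway was not tested.

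Other lists showed ratios on both sides. In the interferon signaling list, 4 of the 6 genes were above the median ratio, with a median of 1.50, from 0.907 for IRF9 to 2.08 for JAK1. The other HERC genes had 1.26 to 1.74. The ubiquitin counterparts had a median of 1.00. USP41 had base means too low for this comparison.

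**Figure D1:**
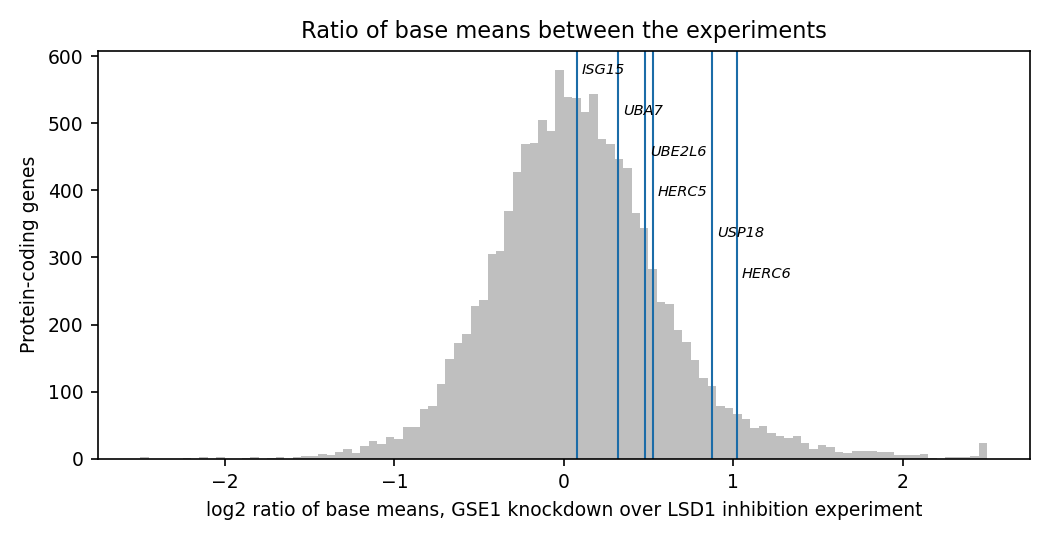
Distribution over 12354 protein-coding genes of the log2 ratio of base means, GSE1 knockdown over LSD1 inhibition experiment, with values beyond the axis in its end bars. Vertical lines mark the 6 ISG15 pathway genes, which run from ISG15, at a ratio of 1.05, to HERC6, at 2.03. The tables were normalised separately and no test was made.

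The promoters of interferon-stimulated genes carry the interferon-stimulated response element, the site at which the complex that holds STAT2 and IRF9 binds. Windows from 250 bases before to 50 bases after the transcription start, taken from RefSeq on GRCh38.p14, were searched on both strands for its letters GAAANNGAAA, where overlapping matches were counted. The table of windows matched 4 of the 6 genes, and USP18 and UBA7 were not matched. The motif was found in 1255 of 35116 windows of all genes, or 3.57%. The windows of ISG15 and HERC5 held it, and they are shown because no other window of the pathway genes had a match. Capitals mark the matches, which on the other strand read TTTCNNTTTC. The stretches are chr1:1013369-1013414 for ISG15 and chr4:88456979-88457069 for HERC5, both on the plus strand and upstream of the RefSeq start of their window. The stretch of ISG15 lies inside the GENCODE span of the gene, which begins further upstream, at 1001138.
ISG15: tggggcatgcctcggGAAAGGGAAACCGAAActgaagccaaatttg
HERC5: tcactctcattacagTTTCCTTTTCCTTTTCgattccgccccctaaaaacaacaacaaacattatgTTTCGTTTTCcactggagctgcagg

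In ISG15, 2 overlapping matches begin 113 and 107 bases before the start. In HERC5, 3 matches on the other strand begin 125, 119 and 74 bases before the start, the first and the second of them overlapping. At least 2 matches occurred in 0.259% of all windows and at least 3 in 0.037%. The single window of HERC6 and the 2 windows of UBE2L6 held no match, which says only that these letters are not in these windows.

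The cells were checked against markers of promyelocytes and of other cell types. MPO, the myeloperoxidase of azurophil granules, had base means of 506765 and 824818, and CTSG, PRTN3, AZU1 and CD33 were above the median expressed gene per kilobase in both experiments. ELANE, the neutrophil elastase of the same granules, was nearly absent, with base means of 1.10 and 3.87, and KIT was low, at 66.3 and 17.6. Of 10 markers of other cell types, CD3D, EPCAM and KRT18 were above the median gene in both experiments, with base means from 403 to 906. The other 7 had base means of at most 31.3. Whether these markers move with the pathway over conditions was not tested.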

How the data were processed

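NB4 cells were profiled by mRNA-seq in 10 samples of 5 groups, with 2 samples each. Libraries were prepared by the authors with TruSeq RNA v2, a kit that does not mark strand. Per the labels, the submitters' processing notes name bcl2fastq 2, FastQC 0.11.5, STAR 2.7, RSEM, DESeq2 and hg38, and the annotation release is not given in the sources used here. The unit used is a signal, the base mean that the authors obtained in DESeq2 by dividing counts by size factors and averaging over the libraries of an experiment. Both hairpin columns hold the same base mean for all 60603 genes. The tables also hold log2 fold changes, their standard errors, Wald statistics and p-values of the authors' own comparisons, none of which was used. The planned tests between conditions could not be run, since they need values per library. No depth or precision per library could therefore be given.

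Lengths, locations and exon overlaps were taken from GENCODE release 44 on GRCh38, to which 60261 of 60558 stable identifiers matched, including 99.6% of the protein-coding genes. Stretches of 50 bases were compared over all its transcripts on both strands. The calculation of levels was tested on data simulated with the same merged-exon lengths. This checks the arithmetic only, not the choice of length or the assignment of reads to genes. The release may differ from the authors' own, so lengths are approximate. Calculations used Python 3.11.15, numpy 2.4.6 and pandas 2.3.3. The named genes were the pathway and lists of genes acting on ISG15, HERC genes, interferon signaling, ubiquitin and ubiquitin-like enzymes, the ISG15 receptor, the perturbed genes and cell type markers. Some genes of these lists are not reported here. These genes and lists were chosen with earlier results of these data known. Other lengths, scalings and filters were tried as alternatives.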

Additional observations from a re-analysis of the deposited data

How the results depend on the processing

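The median per-kilobase level of the 6 ISG15 pathway genes was 38.3 in the knockdown experiment and 25.5 in the inhibition experiment. It moved to 21.5 and 12.1 by coding length, to 37.1 and 24.8 with the longest transcript, and to 36.8 and 24.4 when scaled over all genes with a length. The canonical transcript, a length chosen after seeing the data, gave 32.0 and 19.0. The median percentile of their base means, which are not corrected for length, was 72.8 and 68.4 among protein-coding genes with a base mean above 0. It was 76.4 and 72.9 among all protein-coding genes listed, and 62.6 and 57.0 among those with a base mean of at least 10. With this last filter USP18 was at the 47.6 percentile in the knockdown and the 36.9 percentile in the inhibition experiment. HERC6 was at the 51.3 and the 37.8 percentile, and the other pathway genes stayed above the median in both. By coding length, HERC6 fell to the 46.0 percentile in the inhibition experiment, below the median gene. No paired analysis was possible because the tables used here hold no value per library. For the same reason the other normalization and filter of counts and the fits without single replicates were not run.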
